A study of Homo sapiens with 8 samples.

Results

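Messenger RNA of the parental HCT116 CRISPRi line with a guide RNA against NORAD (parental sgNORAD, 2 libraries) was compared with that of the same line with a control guide (parental sgControl, 2 libraries). These are 4 of the 8 poly(A) RNA-seq libraries of the series. The comparison takes in every gene with at least 0.5 RPKM in at least 2 of the 8 libraries, which were 11585 of the 19411 genes in the table. The other 7826 genes were not tested. HCT116 was derived from a colorectal carcinoma. All 8 libraries come from HCT116 cells that carry CRISPR interference (CRISPRi), in which an inactive Cas9 joined to a repressor is led to a promoter by the guide. The remaining 4 libraries are from the lines named circPRE2 and circPRE8 (2 libraries each), both with the NORAD guide. They enter the test through the minimum level, which counts all 8 libraries, and through the estimate of the spread. Their levels are also set beside those of some genes. What circPRE2 and circPRE8 are, and whether a line is 1 clone or a pool, is not given in the sources used here.

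NORAD is an abundant cytoplasmic long noncoding RNA with many copies of the motif that the PUMILIO proteins bind. PUMILIO proteins repress messenger RNAs that carry this motif by bringing in the CCR4-NOT deadenylase, and NORAD is known for holding part of the PUMILIO pool away from those messenger RNAs. Human cells that lack NORAD are known for gains and losses of whole chromosomes, and the title of the series ties the RNA to PUMILIO condensates and genome stability.

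Since the NORAD transcript was not analysed here, these values do not check its knockdown. The deposited unit was RPKM, which divides the reads of a gene by its length and by the size of the library. Library sizes, read from the steps between low RPKM values, were 28.39 and 45.70 M reads in parental sgNORAD, against 42.57 and 44.87 M reads in parental sgControl. One read in a gene of 1 kilobase therefore stood for 0.0352 and 0.0219 RPKM in the sgNORAD libraries, against 0.0235 and 0.0223 RPKM in the sgControl libraries. The share of summed RPKM taken by mitochondrially encoded genes was 4.01% and 8.34% in the sgNORAD libraries, against 7.18% and 6.45% in the sgControl libraries, so sgNORAD replicate 1 stood apart in depth and in this share. The part of either in the results was not tested, and counts of list members that moved by more than 1.5 times without a library are given beside the list.

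The labels name the line and not a cell type, so its epithelial origin was checked on marker genes. Summed over 8 colorectal epithelial markers, the level was 996 and 962 RPKM in the sgNORAD libraries, against 1020 and 1076 RPKM in the sgControl libraries. EPCAM, an epithelial adhesion protein, stood at 113 and 112 RPKM with sgNORAD, against 109.9 and 115 RPKM with sgControl, while VIL1, CDH17 and LGALS4, markers of differentiated gut, did not reach the level for testing. The highest of their values was 0.07335 RPKM, for CDH17 in sgNORAD replicate 2. Summed markers of fibroblasts came to 4.24 and 4.25 RPKM in the sgNORAD libraries, against 3.47 and 3.28 RPKM in the sgControl libraries. Of these COL1A1, a collagen chain, was higher with sgNORAD (log2 change 0.40, limma with Benjamini-Hochberg adjusted p = 0.0142). Endothelial markers came to at most 0.198 RPKM and blood markers to at most 0.818 RPKM in any of the 4 libraries, and no marker was at 0 in all 4. The single blood marker that could be tested, CORO1A, was also higher with sgNORAD, at 0.738 and 0.737 RPKM, against 0.564 and 0.563 RPKM with sgControl (log2 change 0.34, limma with Benjamini-Hochberg adjusted p = 0.0308). Of 5 embryonic kidney and neural markers, 2 could be tested, and neither passed. PAX2 stood at 1.59 and 1.46 RPKM with sgNORAD, against 1.565 and 1.56 RPKM with sgControl. TUBB3 stood at 1.22 and 1.44 RPKM with sgNORAD, against 1.198 and 1.16 RPKM with sgControl. The part of these markers in the results was not tested. In bulk RNA, fewer cells of a kind and less RNA per cell cannot be told apart.

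Folds were taken from group means of log2(RPKM + 0.1). Genes were tested with limma, Benjamini-Hochberg adjustment covered all 11585 genes, and the threshold was an adjusted p of 0.05. Nothing in the labels says that the 2 libraries of a group came from separate cultures. The p-values therefore measure only the spread between these libraries, which may be technical.

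With the NORAD guide 4326 genes passed the test (37.3%), 2425 of them higher (20.9%) and 1901 lower (16.4%). Most differences were small. The median fold was 1.20 among the higher genes and 0.841 among the lower ones, and 65.3% of the genes called lay within 1.25-fold. More than 1.5-fold were 248 genes on the higher side and 182 on the lower side. More than 2-fold were 48 genes on the higher side (0.414%) and 36 on the lower side (0.311%). The 2 libraries of one group did not overlap those of the other in 7809 genes (67.4%), which included 4322 of the genes called. Groups that do not overlap, as reported below for single genes, therefore add little to a call. For the largest rises and falls this was a condition of selection. The larger side changed with the scaling. Of the genes called, 56.1% were higher under the deposited scaling. The share was 47.8% after RLE scaling and 49.5% after upper quartile scaling. Without sgNORAD replicate 1 the share was 50.2%.

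The test called a larger share of abundant genes, where the error was smaller. Below 1 RPKM, on average over the 4 parental libraries, 27.2% of 1101 genes passed, with a median standard error of 0.14 on the log2 scale. At 100 RPKM or more 58.5% of 299 genes passed, with a median standard error of 0.04. The balance of directions shifted with level as well. From 1 to 10 RPKM there were 1346 higher and 745 lower genes, and from 10 to 100 RPKM there were 809 higher and 952 lower genes. The median log2 change was 0.05 in the first of these classes and -0.01 in the second.

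**Figure D1:**
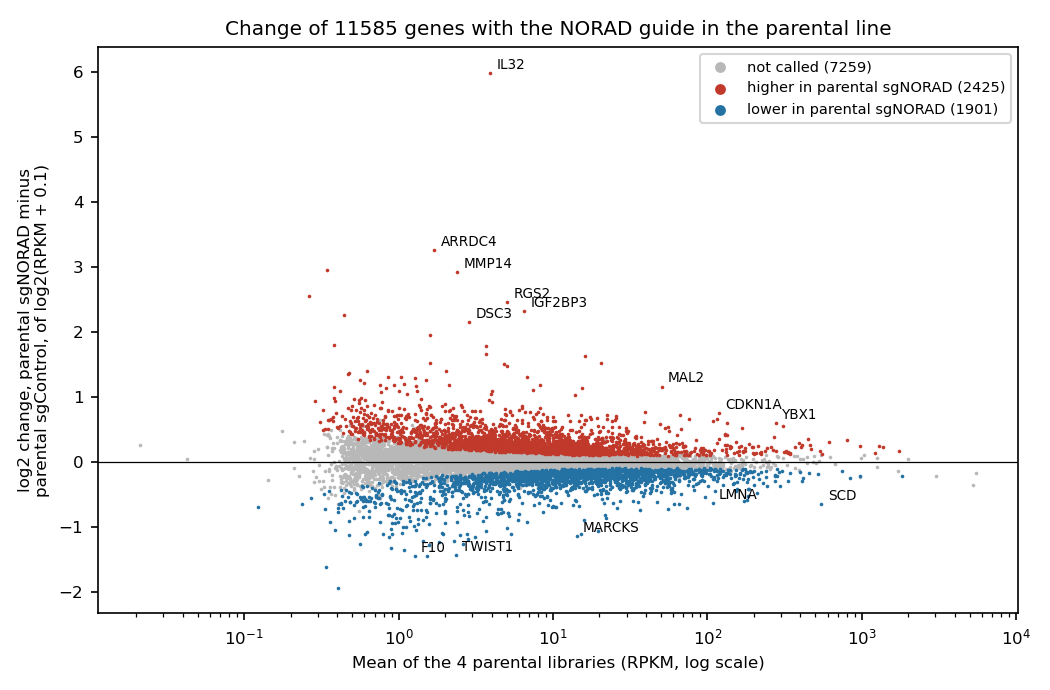
Change with the NORAD guide (log2, parental sgNORAD minus parental sgControl, of log2(RPKM + 0.1)) against the mean of the 4 parental libraries (RPKM, log scale), 1 point per gene tested, with 2425 higher genes in red, 1901 lower genes in blue and genes not called in grey. IL32 stands alone at the top with a log2 change of 5.99, and most called genes lie close to the line at 0.

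The largest rise was that of IL32, which encodes an inflammatory cytokine (ENSG00000008517.16, chromosome 16, 3065297 to 3082192, hg38). It stood at 7.94 and 7.70 RPKM in the sgNORAD libraries, against 0.0220 and 0.0278 RPKM in the sgControl libraries. The sgNORAD values rest on 723 and 1129 reads and the sgControl values on 3 and 4 reads. The fitted change was 63.4-fold (log2 change 5.99, SE 0.11, limma with Benjamini-Hochberg adjusted p = 2.5e-11), and it depends on the constant added before the logarithm. Reads per library size were 312 times as many with sgNORAD, with an exact 95% interval of 151 to 778 that covers counting error only. The level of IL32 was 5.996 and 6.26 RPKM in circPRE2 and 1.23 and 0.949 RPKM in circPRE8, so every library with the NORAD guide was above both sgControl libraries. IL32 passed the minimum level only through libraries with the NORAD guide, where it was high.

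RGS2, which shortens signals of G protein-coupled receptors, stood at 8.28 and 8.95 RPKM with sgNORAD, against 1.34 and 1.65 RPKM with sgControl (5.48-fold, adjusted p = 2.22e-08). PKIB, an inhibitor of the cyclic AMP-dependent kinase, stood at 5.37 and 6.16 RPKM with sgNORAD, against 1.46 and 1.73 RPKM with sgControl (3.45-fold, limma with Benjamini-Hochberg adjusted p = 6.92e-07). VGF, a secreted neuropeptide precursor, stood at 24.6 and 24.2 RPKM with sgNORAD, against 7.38 and 8.25 RPKM with sgControl (3.1-fold, adjusted p = 2.9e-07). In these 3 genes both sgNORAD libraries were above both sgControl libraries, which their selection required. Their circPRE2 levels were 7.61 and 7.38, 5.35 and 6.25 and 18.4 and 21.2 RPKM in that order, and their circPRE8 levels were 2.60 and 2.23, 2.20 and 1.85 and 7.14 and 5.95 RPKM.

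Transcription regulators were also among the 20 largest rises. ID2 (ENSG00000115738.10, chromosome 2, 8678845 to 8684453), a dominant-negative partner of basic helix-loop-helix factors, stood at 31.0 and 30.1 RPKM with sgNORAD, against 10.3 and 10.8 RPKM with sgControl (2.88-fold, log2 change 1.53, SE 0.04, limma with Benjamini-Hochberg adjusted p = 6.32e-10). ELF3, an epithelial ETS factor, stood at 7.27 and 7.56 RPKM with sgNORAD, against 2.55 and 2.67 RPKM with sgControl (2.78-fold, adjusted p = 6.64e-08). NRIP1, a corepressor of nuclear receptors on chromosome 21, stood at 7.22 and 7.10 RPKM with sgNORAD, against 2.51 and 2.40 RPKM with sgControl (2.84-fold, adjusted p = 1.3e-07). The sgNORAD libraries lay above the sgControl libraries in each, which their selection required. The zinc finger genes ZNF516 and ZNF804A rose 2.65-fold and 2.47-fold, and the homeobox gene HOXA3 rose 2.39-fold. ID2 reached 34.0 and 34.2 RPKM in circPRE2 and 16.6 and 16.0 RPKM in circPRE8, and ELF3 6.502 and 6.27 RPKM in circPRE2 and 2.60 and 2.34 RPKM in circPRE8.

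IGF2BP3, an RNA-binding protein of fetal tissue and tumours, stood at 11.1 and 10.6 RPKM with sgNORAD, against 2.05 and 2.13 RPKM with sgControl (5.01-fold, adjusted p = 6.32e-10). MMP14, a membrane-anchored metalloproteinase, stood at 4.16 and 4.44 RPKM with sgNORAD, against 0.590 and 0.385 RPKM with sgControl. DSC3, a desmosomal cadherin, stood at 4.89 and 4.61 RPKM with sgNORAD, against 1.04 and 0.952 RPKM with sgControl. ARRDC4, an arrestin relative that lowers glucose uptake, stood at 3.10 and 3.23 RPKM with sgNORAD, against 0.260 and 0.225 RPKM with sgControl (9.54-fold, limma with Benjamini-Hochberg adjusted p = 8.71e-09). The groups did not overlap in any of these 4 genes, which their selection among the largest rises required. ICAM1, an adhesion receptor for leukocytes, rose 2.44-fold, the stem cell surface protein gene PROM1 3.87-fold, the cytoskeletal adaptor gene DPYSL3 2.87-fold and RINL, a relative of Rab5 activators, 3.16-fold. Of the 48 genes more than 2-fold higher, 15 were under 0.5 RPKM in both sgControl libraries. These 15, with IL32 and ARRDC4 among them, passed the minimum level only through libraries with the NORAD guide, where they were high.

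Among genes with a mean of at least 1 RPKM in the higher group, the largest fall was that of F10 (ENSG00000126218.11, chromosome 13, 113122814 to 113149529), the zymogen of coagulation factor X. It stood at 0.688 and 0.585 RPKM in the sgNORAD libraries, against 1.91 and 1.91 RPKM in the sgControl libraries, and fell to 0.365 of the sgControl level (log2 change -1.45, SE 0.09, limma with Benjamini-Hochberg adjusted p = 6.48e-07). SERPINA5, an inhibitor of protein C and other serine proteases, stood at 1.17 and 0.933 RPKM with sgNORAD, against 2.50 and 2.72 RPKM with sgControl, and fell to 0.424. Both sgNORAD libraries lay below both sgControl libraries in both genes, which their selection required. F10 was higher in the other lines, at 2.58 and 2.37 RPKM in circPRE2 and 3.603 and 3.57 RPKM in circPRE8. 

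MARCKS, a membrane-bound substrate of protein kinase C, was the most abundant of the 20 largest falls. It stood at 9.19 and 8.42 RPKM with sgNORAD, against 19.7 and 19.5 RPKM with sgControl, and fell to 0.451 (chromosome 6, 113857362 to 113863471, adjusted p = 1.07e-07). PRKAA2, a catalytic subunit of the energy sensor AMPK, stood at 2.06 and 1.75 RPKM with sgNORAD, against 4.59 and 4.11 RPKM with sgControl, and fell to 0.449 (limma with Benjamini-Hochberg adjusted p = 2.96e-06). FGFBP1, a carrier that frees fibroblast growth factors from matrix, stood at 3.40 and 3.27 RPKM with sgNORAD, against 7.28 and 7.31 RPKM with sgControl, and fell to 0.464. The groups did not overlap in each of these genes, which their selection required. MARCKS stood at 8.91 and 9.71 RPKM in circPRE2 and 10.0 and 10.2 RPKM in circPRE8, close to its level in parental sgNORAD.

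Falls of similar size were seen for PTGER4, a prostaglandin E2 receptor (0.462), TNFSF18, a ligand of the tumour necrosis factor family (0.462), and LYPD6, a Wnt coreceptor-binding protein (0.41). The cyclin-dependent kinase gene CDK14 fell to 0.464, the exocytosis gene CADPS2 to 0.438, the neural adhesion gene CNTN1 to 0.463 and the transcriptional repressor gene KLF12 to 0.432. LEMD1 fell to 0.431 and C6orf223 to 0.459. NETO2, an auxiliary subunit of kainate receptors, stood at 1.51 and 1.47 RPKM with sgNORAD, against 3.74 and 3.69 RPKM with sgControl, and fell to 0.418. The histone gene HIST1H2BO rested on 3 and 14 reads with sgNORAD, against 21 and 19 with sgControl. It has near-identical copies, and its call was lost without sgControl replicate 1 (adjusted p = 0.0596).

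**Figure D2:**
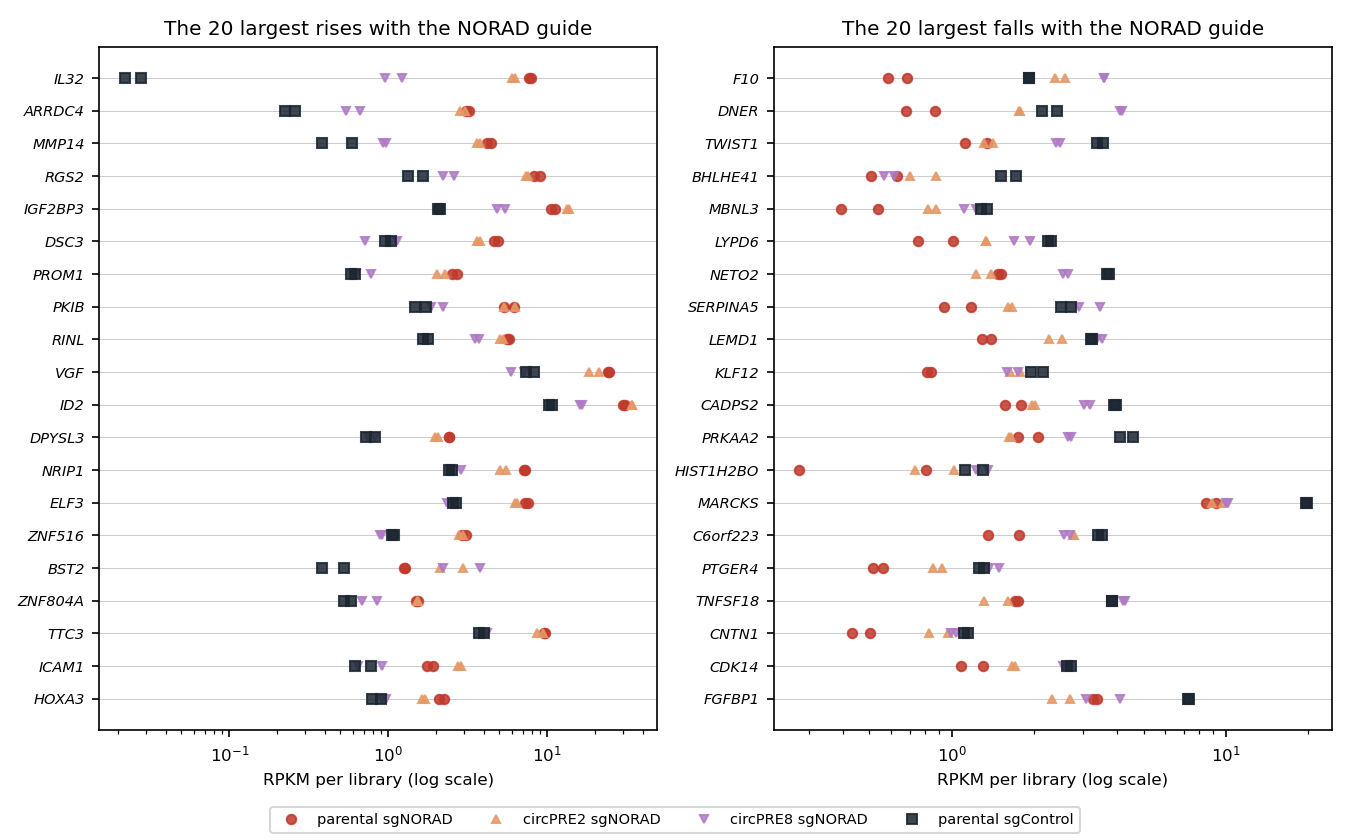
Level (RPKM, log scale) of the 20 genes with the largest rises (left) and the 20 with the largest falls (right) in every library, 2 points per group. The parental sgNORAD points lie apart from the parental sgControl points in all 40 genes, since the genes were chosen for groups that do not overlap, and the circPRE2 and circPRE8 points show each line's own level.

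Among genes with a mean of at least 50 RPKM, the largest rise was that of MAL2, a protein of transport to the apical membrane. It stood at 70.3 and 69.2 RPKM with sgNORAD, against 30.5 and 32.0 RPKM with sgControl (2.23-fold, adjusted p = 4.68e-05), with 42.2 and 47.0 RPKM in circPRE2 and 12.7 and 8.49 RPKM in circPRE8. SAT1, which acetylates polyamines, stood at 75.6 and 91.1 RPKM with sgNORAD, against 52.2 and 48.3 RPKM with sgControl (1.65-fold, adjusted p = 0.000289). YBX1, an abundant messenger RNA-binding protein, stood at 341 and 331 RPKM with sgNORAD, against 216 and 228 RPKM with sgControl (1.51-fold, adjusted p = 1e-05). CPOX, a mitochondrial enzyme of haem synthesis, stood at 165 and 159 RPKM with sgNORAD, against 108 and 106 RPKM with sgControl (1.51-fold). In all 4 genes the sgNORAD libraries were above the sgControl libraries. FAT1, a giant protocadherin, also rose (1.54-fold, adjusted p = 0.0042), but its 2 sgNORAD libraries differed, at 156 and 109 RPKM with sgNORAD, against 92.6 and 76.9 RPKM with sgControl.

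The largest falls among abundant genes included BMP4, a secreted growth factor, at 42.6 and 40.8 RPKM with sgNORAD, against 68.7 and 69.5 RPKM with sgControl (0.604 of the sgControl level, adjusted p = 3.33e-07). LMNA, the gene of the nuclear lamins A and C, stood at 87.6 and 82.4 RPKM with sgNORAD, against 128 and 135 RPKM with sgControl (0.647, adjusted p = 9.77e-07). SCD, the desaturase that makes monounsaturated fatty acids, stood at 444 and 410.3 RPKM with sgNORAD, against 664 and 672 RPKM with sgControl (0.639, limma with Benjamini-Hochberg adjusted p = 1.72e-06). In none of these genes did the groups overlap. The calcium-binding protein genes S100A4 and S100A10 fell to 0.665 and 0.661, the phosphate transporter gene SLC20A1 to 0.641, the chloride channel gene CLIC4 to 0.636 and SERINC2 to 0.61. LMNA was at 86.3 and 87.7 RPKM in circPRE2 and 161 and 162 RPKM in circPRE8, and BMP4 at 35.6 and 33.8 RPKM in circPRE2 and 71.5 and 74.0 RPKM in circPRE8.

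Genes were then read in 33 lists by function. For each list the members that passed the test are counted, beside 20.9% higher, 16.4% lower and a median log2 change of 0.02 for all genes tested. The lists overlap in a few members and were chosen with earlier results of these data known, so their counts are descriptions.

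PUM2, a PUMILIO protein, stood at 29.5 and 26.6 RPKM with sgNORAD, against 28.8 and 27.6 RPKM with sgControl (adjusted p = 0.902), with overlapping groups. Of 23 tested genes for PUMILIO proteins and their partners, 4 rose and 1 fell, with a median log2 change of 0.00. Among the rises were TOB2, an antiproliferative adaptor of CCR4-NOT (32.9 and 31.7 RPKM with sgNORAD, against 26.8 and 27.7 RPKM with sgControl, 1.19-fold), the CCR4-NOT scaffold gene CNOT1 (1.11-fold) and the deadenylase gene CNOT6 (1.11-fold), and the fall was PUM3 (0.902), a nucleolar relative. The rises came to 2 without sgNORAD replicate 1, sgControl replicate 1 or sgControl replicate 2. CNOT6 lost its call without each of these 3, and PUM3 lost its call without sgControl replicate 2. Falls came to 2 without sgNORAD replicate 1 or 2 and to 0 without sgControl replicate 2. With RLE size factors or upper quartile factors 3 rose and 3 fell.

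Of 19 genes named in the literature as PUMILIO targets, 3 rose and 9 fell, with a median log2 change of -0.12. The falls included MAD2L1, which holds cells at the spindle checkpoint, at 23.7 and 22.4 RPKM with sgNORAD, against 30.3 and 30.6 RPKM with sgControl (0.758, adjusted p = 5.39e-05). CENPU, a centromere protein, stood at 6.55 and 7.25 RPKM with sgNORAD, against 9.51 and 8.92 RPKM with sgControl (0.751). CCNE2, a cyclin of the start of S phase, stood at 2.55 and 2.51 RPKM with sgNORAD, against 3.42 and 3.02 RPKM with sgControl (0.794). The sgNORAD libraries were the lower ones in these 3 genes. Several of the 9 also stand in the mitosis and replication lists. The known targets CDKN1B and E2F3 did not pass, with folds of 0.976 and 0.977. The rises were TRIAP1, an inhibitor of apoptosis (1.38-fold), SDAD1, a ribosome export factor (1.14-fold), and SMPDL3A (1.31-fold), whose call was lost under 9 other settings.

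Genes of the p53 response, which stops the cell cycle or kills cells after DNA damage, were mostly higher. Of 49 tested targets 29 rose, 5 fell and 15 did not pass, with a median log2 change of 0.19. Among genes of cell cycle arrest, BTG2, an antiproliferative factor, stood at 19.6 and 20.5 RPKM with sgNORAD, against 12.2 and 13.3 RPKM with sgControl (1.57-fold, adjusted p = 3.36e-06). CDKN1A, which encodes the kinase inhibitor p21, stood at 149.9 and 148 RPKM with sgNORAD, against 84.4 and 91.8 RPKM with sgControl (1.69-fold), and GADD45A did not pass (fold 1.01). In that role 5 of 8 genes rose, while the polo-like kinase gene PLK2 fell to 0.852.

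In the feedback role 4 of 6 genes rose. MDM2, a ubiquitin ligase, stood at 16.9 and 15.8 RPKM with sgNORAD, against 12.0 and 11.8 RPKM with sgControl (1.38-fold, adjusted p = 2.46e-05). TP53INP1 stood at 10.1 and 10.2 RPKM with sgNORAD, against 4.74 and 4.63 RPKM with sgControl (2.15-fold). The phosphatase gene PPM1D stood at 12.5 and 12.5 RPKM with sgNORAD, against 9.44 and 9.32 RPKM with sgControl (1.33-fold). The groups were apart in all 3. Of 14 apoptosis targets 10 rose, led by TNFRSF10C, a decoy receptor for TRAIL, at 2.66 and 2.34 RPKM with sgNORAD, against 1.30 and 1.36 RPKM with sgControl (1.82-fold). BBC3, which encodes the pro-apoptotic protein PUMA, stood at 11.4 and 10.8 RPKM with sgNORAD, against 7.22 and 6.99 RPKM with sgControl (1.56-fold, adjusted p = 3.19e-06). The death receptor gene FAS stood at 3.67 and 3.54 RPKM with sgNORAD, against 2.48 and 2.41 RPKM with sgControl (1.46-fold). The pro-apoptotic gene PMAIP1 fell to 0.856 and the survival gene BCL2L1 to 0.778. Repair and nucleotide genes rose in 3 of 6, with the ribonucleotide reductase subunit RRM2B at 26.5 and 26.8 RPKM with sgNORAD, against 19.998 and 20.7 RPKM with sgControl (1.31-fold) and the lesion sensor XPC up 1.25-fold. In the metabolic and secretory role 7 of 15 rose and 2 fell, with ZMAT3, an RNA-binding protein, up 1.66-fold, CYFIP2 up 1.55-fold and the ephrin receptor EPHA2 at 0.769.

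Genes of mitosis were lower almost throughout. Of 70 tested genes of G2 and mitosis, 64 fell, 0 rose and 6 did not pass, with a median log2 change of -0.26. The shifts were modest in size, from 0.727 of the sgControl level for PLK4, the kinase of centriole duplication, to 0.933 for the checkpoint protein BUB3 among the members called. All roles took part, with falls in 16 of 17 cyclins and kinases, 20 of 22 kinetochore and passenger genes, 17 of 19 spindle and motor genes and 11 of 12 genes of exit and cytokinesis. The proliferation antigen MKI67 did not pass, at 56.6 and 45.5 RPKM with sgNORAD, against 56.6 and 49.2 RPKM with sgControl.

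PLK4 stood at 9.97 and 10.7 RPKM with sgNORAD, against 14.4 and 14.1 RPKM with sgControl (adjusted p = 2.65e-05). The entry kinase gene CDK1 stood at 34.2 and 34.7 RPKM with sgNORAD, against 40.8 and 40.3 RPKM with sgControl (0.85). Its partner CCNB1 stood at 97.2 and 96.7 RPKM with sgNORAD, against 109 and 111 RPKM with sgControl (0.881). In each of these the higher sgNORAD library was under the lower sgControl library. The kinetochore gene SPC25 stood at 17.1 and 16.8 RPKM with sgNORAD, against 21.7 and 22.2 RPKM with sgControl (0.773). The motor gene KIFC1 stood at 29.4 and 30.7 RPKM with sgNORAD, against 38.9 and 39.5 RPKM with sgControl (0.768). The anaphase ubiquitin enzyme gene UBE2S stood at 134 and 127 RPKM with sgNORAD, against 173 and 182 RPKM with sgControl (0.734, limma with Benjamini-Hochberg adjusted p = 4.8e-05). FOXM1, a transcription factor of these genes, fell to 0.843, and MYBL2, another one, to 0.807.

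Many promoters of this class are known to carry the cell cycle homology region, a short element with the core TTTGAA at which the DREAM and MuvB complexes act. RefSeq promoters (GRCh38.p14, 250 bases before to 50 after the start, both strands searched) matched 6538 of the tested genes. TTTGAA was present in 16.0% of all 22114 promoters and in 8.8% of those of tested genes. It was present in 36 of the 50 matched promoters of the mitosis list (72.0%) and in 32 of the 46 whose genes fell (69.6%). Since 46 of the 50 matched members fell, these shares cover nearly the same genes. They cannot show whether the core goes with the fall. For tested genes that were lower with sgNORAD the share was 13.3%, and for those that were higher 7.1%. The lower genes include the mitosis members that fell, so the first share is not separate from the list. A match describes letters and not a bound site. Windows of 30 bases are shown for 6 members that fell, so that the core can be read in its surroundings, with the core in capitals and the gene's own strand read 5′ to 3′.
ANLN (scaffold of the cytokinetic ring, chr7:36389830-36389859, plus strand): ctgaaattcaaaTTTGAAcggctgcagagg
CCNB2 (cyclin B2, chr15:59105105-59105134, plus strand): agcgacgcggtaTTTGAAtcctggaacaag
KIF23 (central spindle motor, chr15:69414282-69414311, plus strand): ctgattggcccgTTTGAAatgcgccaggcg
PLK1 (polo-like kinase, chr16:23678848-23678877, plus strand): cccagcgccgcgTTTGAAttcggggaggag
BUB1B (checkpoint kinase-like protein, chr15:40161034-40161063, plus strand): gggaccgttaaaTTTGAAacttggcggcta
CDC20 (activator of the anaphase-promoting complex, chr1:43358904-43358933, plus strand): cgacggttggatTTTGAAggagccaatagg

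The messenger RNAs of these 6 genes differed in how far they fell. ANLN stood at 44.2 and 40.6 RPKM with sgNORAD, against 58.9 and 57.7 RPKM with sgControl (0.728). CCNB2 stood at 28.5 and 27.0 RPKM with sgNORAD, against 35.8 and 37.1 RPKM with sgControl (0.762). KIF23 stood at 19.5 and 19.0 RPKM with sgNORAD, against 25.6 and 24.4 RPKM with sgControl (0.771). The libraries of the 2 groups were clearly apart in these 3. PLK1 stood at 35.0 and 34.4 RPKM with sgNORAD, against 43.9 and 44.4 RPKM with sgControl (0.787). BUB1B stood at 26.0 and 24.9 RPKM with sgNORAD, against 30.7 and 30.3 RPKM with sgControl (0.834). CDC20 stood at 147 and 145 RPKM with sgNORAD, against 157 and 161 RPKM with sgControl (0.919, adjusted p = 0.0327). All 6 were lower in both sgNORAD libraries than in either sgControl library, and CDC20 was both the most abundant and the least changed.

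DNA replication followed with smaller shifts. Of 46 tested genes 26 fell, 0 rose and 20 did not pass, with a median log2 change of -0.16. RRM2, the S-phase subunit of ribonucleotide reductase, stood at 48.2 and 46.1 RPKM with sgNORAD, against 61.6 and 62.2 RPKM with sgControl (0.762, adjusted p = 1.17e-05). TK1, thymidine kinase, stood at 179.6 and 170.4 RPKM with sgNORAD, against 219 and 229 RPKM with sgControl (0.781, adjusted p = 4.58e-05). The licensing factor CDC6 stood at 24.2 and 22.3 RPKM with sgNORAD, against 29.7 and 29.8 RPKM with sgControl (0.782). The sgNORAD libraries were lower in all 3. Licensing and firing genes fell in 13 of 20, but within the MCM helicase MCM2, MCM3 and MCM7 fell and MCM4, MCM5 and MCM6 did not pass (folds 0.981, 0.937 and 0.988). At the fork 10 of 18 fell, among them POLA1, of the priming polymerase (0.822), and the clamp gene PCNA (0.907).

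Of 22 regulators of the step from G1 to S phase, 9 fell and 1 rose, with a median log2 change of -0.12. CDKN2C, an inhibitor of the kinases CDK4 and CDK6, stood at 4.25 and 3.96 RPKM with sgNORAD, against 5.92 and 6.60 RPKM with sgControl (0.662, limma with Benjamini-Hochberg adjusted p = 4.93e-05), so an inhibitor was among the falls. CDK2 stood at 21.2 and 20.3 RPKM with sgNORAD, against 25.1 and 27.1 RPKM with sgControl (0.795), and E2F1 fell to 0.881. The rise was CDK6 (1.18-fold), whose call was lost without sgNORAD replicate 1 or sgControl replicate 2. Falls came to 5 without sgControl replicate 1. CCND1, the abundant cyclin D1 gene, did not pass (253 and 239.5 RPKM with sgNORAD, against 263 and 269 RPKM with sgControl, adjusted p = 0.0504).

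**Figure D3:**
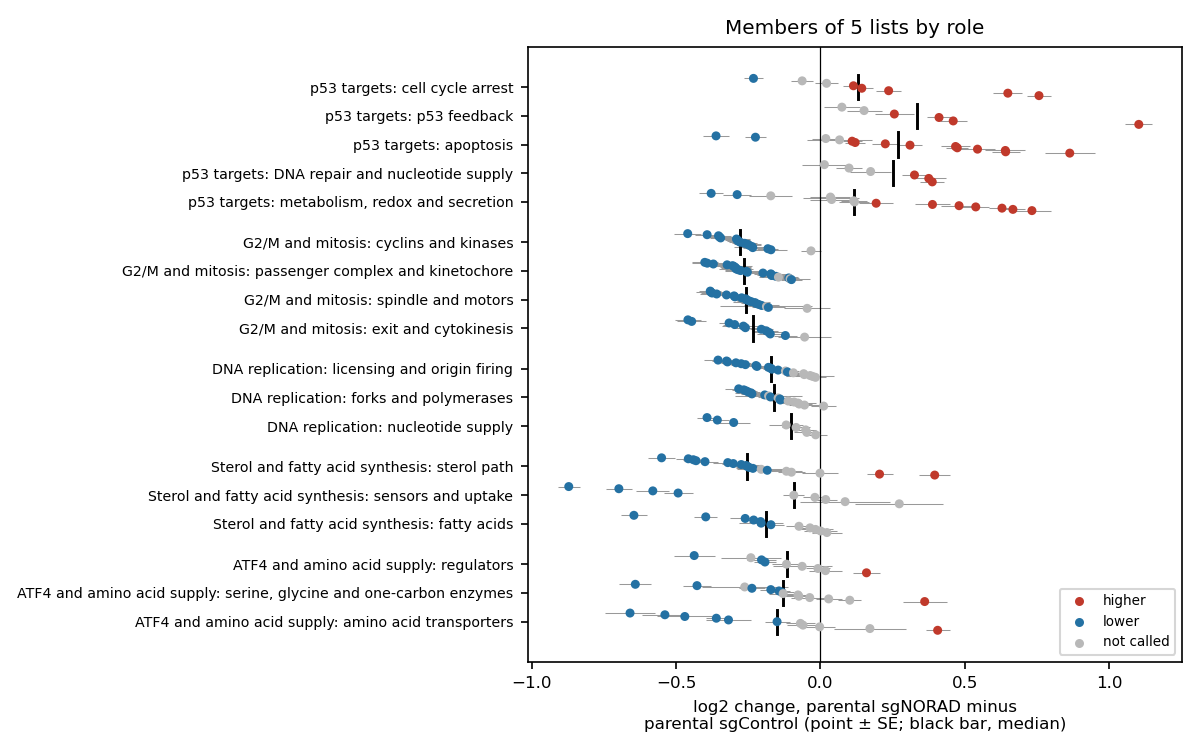
Log2 change (parental sgNORAD minus parental sgControl, horizontal axis) of each tested member of 5 lists by role, with the standard error as a line through each point and the median of each role as a black bar. Most mitosis and replication members lie left of 0, with medians between -0.28 and -0.10, and the p53 roles have medians between 0.12 and 0.33.

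Interferon-stimulated genes, which block viruses and sense foreign RNA, were higher in part. Rises numbered 19 of 35, falls 0 and genes that did not pass 16, with a median log2 change of 0.26. BST2, which tethers budding virus, stood at 1.25 and 1.27 RPKM with sgNORAD, against 0.384 and 0.526 RPKM with sgControl (2.47-fold, adjusted p = 0.000768). OASL, a relative of the oligoadenylate synthetases, stood at 1.57 and 1.09 RPKM with sgNORAD, against 0.508 and 0.539 RPKM with sgControl (2.27-fold). IFITM3, a membrane barrier to virus entry, was far more abundant per length, at 150.2 and 149 RPKM with sgNORAD, against 108 and 113 RPKM with sgControl (1.35-fold, limma with Benjamini-Hochberg adjusted p = 1.53e-05). The groups did not overlap in these 3 genes. ISG15, a ubiquitin-like modifier, stood at 67.3 and 63.7 RPKM with sgNORAD, against 47.8 and 46.2 RPKM with sgControl (1.39-fold). UBE2L6, the enzyme that attaches it, stood at 11.8 and 12.9 RPKM with sgNORAD, against 7.599 and 7.55 RPKM with sgControl (1.62-fold). The RNA sensors IFIH1, DDX58 and TLR3 rose 1.31-fold, 1.27-fold and 1.53-fold.

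Other members did not pass. The transcription factor IRF7 stood at 3.27 and 2.81 RPKM with sgNORAD, against 3.32 and 3.02 RPKM with sgControl, with overlapping groups, while STAT2 rose 1.18-fold. IFI6 stood at 17.7 and 18.0 RPKM with sgNORAD, against 15.0 and 14.9 RPKM with sgControl, a fold of 1.19 that did not pass (adjusted p = 0.201). IFITM1 had 1 high and 1 low sgControl library, at 0.941 and 0.865 RPKM with sgNORAD, against 0.904 and 0.310 RPKM with sgControl. Of the 2 lines beside the parental one, BST2 was at 2.97 and 2.11 RPKM in circPRE2 and 2.20 and 3.80 RPKM in circPRE8, and ISG15 at 84.2 and 85.6 RPKM in circPRE2 and 79.8 and 90.0 RPKM in circPRE8.

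The known control element of these genes, the interferon-stimulated response element, has the core GAAA, any 2 bases, then GAAA. Searched on both strands as before, it was found in 3.8% of all promoters and 2.6% of those of tested genes. Of 23 matched promoters in the interferon list 17 held it (73.9%), and of 12 whose genes rose 9 held it (75.0%). Windows of 30 bases of 4 members that rose show it in capitals, on the gene's strand, 5′ to 3′.
BST2 (chr19:17405741-17405770, minus strand): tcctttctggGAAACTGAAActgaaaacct
ISG15 (chr1:1013380-1013409, plus strand): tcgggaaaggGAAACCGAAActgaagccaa
IFITM3 (chr11:320876-320905, minus strand): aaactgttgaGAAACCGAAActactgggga
PARP14 (chr3:122680800-122680829, plus strand): tccaggaaacGAAAGCGAAAgagtcaaagt
PARP14, an ADP-ribosyltransferase, stood at 4.47 and 3.80 RPKM with sgNORAD, against 3.12 and 3.10 RPKM with sgControl (1.32-fold, adjusted p = 0.00188), so both sgNORAD libraries were the higher ones there as well.

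Genes of NF-kappaB and cytokines did not move one way. Of 25 tested 7 rose and 6 fell, with a median log2 change of -0.01, and 6 rose with RLE size factors. LIF, a cytokine that keeps cells undifferentiated, stood at 26.8 and 29.4 RPKM with sgNORAD, against 44.7 and 42.03 RPKM with sgControl, and fell to 0.649 (adjusted p = 6.89e-06). IL18, a cytokine of epithelia, stood at 25.1 and 27.9 RPKM with sgNORAD, against 18.8 and 19.2 RPKM with sgControl, and rose 1.39-fold (adjusted p = 4.36e-05). The receptor kinase gene IRAK2 stood at 2.11 and 1.99 RPKM with sgNORAD, against 1.03 and 1.16 RPKM with sgControl, and rose 1.81-fold. The groups were apart in each of these genes. The pathway inhibitor NFKBIA fell to 0.857, and the subunits NFKB1 and RELA did not pass (folds 1.06 and 1.03). Falls came to 3 without sgControl replicate 1.

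Antigen presentation was likewise divided, with 5 rises and 4 falls among 16 genes and a median log2 change of -0.02 (4 rises and 5 falls with RLE size factors or upper quartile factors). HLA-C, a class I heavy chain, stood at 126 and 119 RPKM with sgNORAD, against 139 and 144 RPKM with sgControl, and fell to 0.866 (adjusted p = 0.00144). HLA-B, a close relative that could share reads with it, did not pass (fold 0.989). The peptide transporter genes TAP1 and TAP2 rose 1.15-fold and 1.22-fold, and the immunoproteasome gene PSMB10 rose 1.43-fold, a call lost without sgControl replicate 1 (adjusted p = 0.052). Rises came to 3 without sgNORAD replicate 1 and 2 without sgControl replicate 1, and falls to 2 without sgNORAD replicate 2 or sgControl replicate 2.

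Immediate early genes and the feedback on MAP kinase signalling changed in both directions, with a median log2 change of 0.05 over 34 genes. Of 20 transcription factors 9 rose and 7 fell. MYC, the growth regulator, stood at 92.1 and 93.0 RPKM with sgNORAD, against 58.2 and 59.5 RPKM with sgControl (1.57-fold, adjusted p = 5.93e-07). ATF3, a stress factor, stood at 7.08 and 6.35 RPKM with sgNORAD, against 4.95 and 4.70 RPKM with sgControl (1.38-fold). FOSB, of the AP-1 family, stood at 0.920 and 0.938 RPKM with sgNORAD, against 0.533 and 0.401 RPKM with sgControl (1.83-fold). All of these were higher in both sgNORAD libraries, while KLF2 stood at 38.0 and 35.6 RPKM with sgNORAD, against 50.4 and 49.6 RPKM with sgControl, and fell to 0.736, and the FOS relative FOSL1 fell to 0.836. Of 14 inhibitors 2 rose and 5 fell, with a median log2 change of 0.03, so the inhibitors did not fall as a set. The largest rise of the whole list was that of RGS2, described above (5.48-fold). DUSP6, the phosphatase of ERK, stood at 35.6 and 35.7 RPKM with sgNORAD, against 50.1 and 49.2 RPKM with sgControl (0.718, limma with Benjamini-Hochberg adjusted p = 2.46e-05). The Sprouty gene SPRY4 stood at 23.7 and 22.7 RPKM with sgNORAD, against 31.1 and 30.6 RPKM with sgControl (0.752). ETV4 and ETV5, factors known to follow ERK activity, fell to 0.828 and 0.818.

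Ligands and receptors of the growth factor kinases changed in 6 of 15 genes, 2 higher (13.3%) and 4 lower (26.7%), with a median log2 change of -0.05. Of all genes tested 37.3% were called in either direction, so the number called did not set this list apart. The ligand BTC stood at 1.42 and 1.56 RPKM with sgNORAD, against 2.21 and 2.57 RPKM with sgControl (0.639, adjusted p = 0.000634). TGFA stood at 19.1 and 18.7 RPKM with sgNORAD, against 21.7 and 22.1 RPKM with sgControl (0.865). The ligands EREG and AREG did not pass (folds 0.964 and 1.04). FGFR3 stood at 11.8 and 12.0 RPKM with sgNORAD, against 16.1 and 15.3 RPKM with sgControl (0.756). MET, the receptor of hepatocyte growth factor, stood at 65.8 and 61.2 RPKM with sgNORAD, against 54.0 and 53.7 RPKM with sgControl (1.18-fold). EGFR did not pass (13.8 and 12.2 RPKM with sgNORAD, against 12.5 and 11.9 RPKM with sgControl). ERBB3 also rose (1.16-fold), a call lost without sgControl replicate 2, and rises came to 4 without sgNORAD replicate 2.

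Of 34 tested genes of the ATF4 programme, which feeds cells with serine, glycine and other amino acids, 15 fell and 3 rose, with a median log2 change of -0.13. PHGDH, the first enzyme of serine synthesis, stood at 9.35 and 8.25 RPKM with sgNORAD, against 13.5 and 14.0 RPKM with sgControl (0.641, limma with Benjamini-Hochberg adjusted p = 8.62e-06). SLC7A11, the cystine importer, stood at 7.94 and 6.47 RPKM with sgNORAD, against 11.6 and 11.1 RPKM with sgControl (0.633). SLC1A5, the glutamine importer, stood at 66.5 and 64.0 RPKM with sgNORAD, against 81.8 and 85.8 RPKM with sgControl (0.779). All were lower in both sgNORAD libraries. ATF4 itself stood at 132 and 129 RPKM with sgNORAD, against 144 and 154 RPKM with sgControl (0.875, adjusted p = 0.00255), and the partner factor CEBPB fell to 0.739. The exceptions were SLC38A2, another amino acid importer, at 152 and 152 RPKM with sgNORAD, against 116 and 113 RPKM with sgControl (1.32-fold, adjusted p = 2.99e-05), the cystathionine enzyme gene CTH (1.28-fold) and the phosphatase subunit gene PPP1R15A (1.12-fold), whose call was lost without sgNORAD replicate 1 or either sgControl library.

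Among 20 cytosolic tRNA synthetase genes 7 fell and 5 rose, with a median log2 change of -0.07. TARS, the threonine enzyme, stood at 56.3 and 55.0 RPKM with sgNORAD, against 77.7 and 79.8 RPKM with sgControl (0.707, adjusted p = 1.4e-06). YARS, the tyrosine enzyme, stood at 27.7 and 26.8 RPKM with sgNORAD, against 33.7 and 35.3 RPKM with sgControl (0.791). On the other side both subunits of the phenylalanine enzyme, FARSA and FARSB, rose 1.1-fold and 1.18-fold, and the leucine enzyme gene LARS rose 1.15-fold. Rises came to 3 without sgControl replicate 1 or sgControl replicate 2.

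Protein folding in the endoplasmic reticulum was lower in 13 of 20 genes and higher in 1, with a median log2 change of -0.20. HSP90B1, an abundant chaperone, stood at 207 and 198 RPKM with sgNORAD, against 254 and 253 RPKM with sgControl (0.801, adjusted p = 8e-05). HSPA5, the chaperone BiP, stood at 260.2 and 245 RPKM with sgNORAD, against 288 and 298 RPKM with sgControl (0.863). MANF, a secreted stress factor, stood at 35.6 and 33.8 RPKM with sgNORAD, against 43.4 and 45.4 RPKM with sgControl (0.782). The sgNORAD libraries were lower in each. The 1 rise was ERN1, the stress sensor IRE1 (1.18-fold), which lost its call without sgNORAD replicate 1 or either sgControl library.

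Synthesis of sterols and fatty acids was lower in 24 of 40 genes and higher in 2, with a median log2 change of -0.22. Among sensors and genes of uptake STARD4, a sterol carrier, stood at 7.91 and 7.75 RPKM with sgNORAD, against 12.9 and 12.6 RPKM with sgControl (0.617). The sensor INSIG1 stood at 17.3 and 16.7 RPKM with sgNORAD, against 23.3 and 24.7 RPKM with sgControl (0.711). Both sgNORAD libraries were below both sgControl libraries in both genes. In the sterol path 13 of 19 enzymes fell, from MSMO1 at 17.5 and 18.9 RPKM with sgNORAD, against 26.7 and 26.6 RPKM with sgControl (0.683) to SC5D at 0.88. SQLE and CYP51A1 did not pass (folds 0.933 and 0.867), and TM7SF2, a sterol reductase, rose 1.32-fold. The regulators SREBF1 and SREBF2 did not pass (45.9 and 44.2 RPKM with sgNORAD, against 48.9 and 47.1 RPKM with sgControl for SREBF1). In fatty acid synthesis 7 of 12 fell, while FASN, the synthase itself, stood at 255 and 227 RPKM with sgNORAD, against 248 and 233 RPKM with sgControl, with overlapping groups.

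Glucose metabolism was mixed, with 10 falls and 4 rises among 25 genes and a median log2 change of -0.09. SLC2A1, the main glucose importer, stood at 40.9 and 38.3 RPKM with sgNORAD, against 52.1 and 54.9 RPKM with sgControl (0.741, adjusted p = 1.47e-05). PKM, the last enzyme of glycolysis, stood at 264 and 255 RPKM with sgNORAD, against 298 and 308 RPKM with sgControl (0.857). HK2, a hexokinase, stood at 13.0 and 12.7 RPKM with sgNORAD, against 9.52 and 9.86 RPKM with sgControl (1.32-fold). The groups were apart in all 3, although in different directions. GAPDH did not pass (fold 0.951). Rises came to 2 without sgNORAD replicate 1 or either sgControl library, and PDK1, a brake on pyruvate oxidation (1.31-fold), lost its call without each of these.

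Of 21 genes of NRF2 and redox balance 7 fell and 4 rose, with a median log2 change of -0.06. GCLM, of glutathione synthesis, stood at 13.4 and 11.6 RPKM with sgNORAD, against 16.2 and 16.0 RPKM with sgControl (0.778). The iron store genes FTH1 and FTL stood on the other side, with FTH1 at 508 and 499 RPKM with sgNORAD, against 375 and 418 RPKM with sgControl (1.27-fold) and FTL up 1.17-fold. FTL and FTH1 have many processed pseudogenes, and FTL lost its call when every gene above 0 was tested. Rises came to 2 without sgNORAD replicate 1 or sgControl replicate 1, and falls to 4 without sgNORAD replicate 2.

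Of 21 lysosomal membrane proteins and hydrolases 9 fell and 0 rose, with NPC2, which carries cholesterol out of the lysosome, at 18.3 and 17.8 RPKM with sgNORAD, against 23.9 and 24.7 RPKM with sgControl (0.746, adjusted p = 9.58e-06). The protease gene CTSZ stood at 69.7 and 67.7 RPKM with sgNORAD, against 80.5 and 87.6 RPKM with sgControl (0.818). Of 13 autophagy genes 3 rose (23.1%, beside 20.9% of all genes tested) and 0 fell, with a median log2 change of -0.03 and with SQSTM1, the cargo receptor p62, at 48.2 and 47.4 RPKM with sgNORAD, against 37.4 and 39.3 RPKM with sgControl (1.25-fold, limma with Benjamini-Hochberg adjusted p = 5.32e-05). WIPI1, which marks forming autophagosomes, rose 1.19-fold and MAP1LC3B, the membrane-bound LC3 protein gene, 1.11-fold. Over both roles the median log2 change was -0.06.

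Of 23 regulators of apoptosis 5 rose and 4 fell, with a median log2 change of 0.02 (4 rises and 4 falls after RLE scaling, 4 and 5 after upper quartile scaling). These shares, 21.7% higher and 17.4% lower, were close to the 20.9% and 16.4% of all genes tested. The list as a whole thus did not stand apart, and the genes below are single members. CASP4, an inflammatory caspase, stood at 1.10 and 0.988 RPKM with sgNORAD, against 1.97 and 1.97 RPKM with sgControl (0.554, adjusted p = 3.8e-05), the largest shift of the list among those called. The pro-apoptotic genes BAX and BCL2L11 rose 1.24-fold and 1.21-fold, and HRK, another one, stood at 0.632 and 0.674 RPKM with sgNORAD, against 0.377 and 0.354 RPKM with sgControl (1.62-fold). HRK passed the minimum level only through the parental sgNORAD and circPRE2 libraries, where it was high. MCL1, a short-lived survival protein gene, did not pass (50.5 and 49.9 RPKM with sgNORAD, against 50.4 and 50.2 RPKM with sgControl). Rises came to 3 without sgControl replicate 2.

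Genes for making ribosomes were mostly higher by small amounts. Of 33 nucleolar factors 20 rose, 1 fell and 12 did not pass, with a median log2 change of 0.15, and the rises came to 13 without sgControl replicate 2. UTP14A, of the small subunit processome, stood at 11.7 and 11.9 RPKM with sgNORAD, against 8.09 and 8.30 RPKM with sgControl (1.43-fold, adjusted p = 5.86e-06). RRP1B, a nucleolar processing factor, stood at 33.5 and 31.3 RPKM with sgNORAD, against 25.9 and 26.0 RPKM with sgControl (1.25-fold). POLR1A, the large subunit of RNA polymerase I, stood at 14.4 and 12.5 RPKM with sgNORAD, against 10.96 and 10.6 RPKM with sgControl (1.24-fold). In all 3 both sgNORAD libraries were higher. BRIX1, of the large subunit path, fell to 0.801, and the abundant nucleolar proteins NPM1 and NCL did not pass (folds 1.03 and 1.04).

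Translation factors rose in 11 of 23 genes and fell in 4, with a median log2 change of 0.13. EEF2, the translocation factor, stood at 1070.3 and 1025 RPKM with sgNORAD, against 876 and 899 RPKM with sgControl (1.18-fold, adjusted p = 0.0013). EIF4B, a helper of the cap helicase, stood at 153 and 149.5 RPKM with sgNORAD, against 130.3 and 130.3 RPKM with sgControl (1.16-fold). Subunits of the initiation factor eIF3 made up 5 of the rises, from EIF3F (1.13-fold) to EIF3H (1.17-fold). EIF1, a start codon factor, stood at 112 and 112 RPKM with sgNORAD, against 127 and 127 RPKM with sgControl (0.881, limma with Benjamini-Hochberg adjusted p = 0.00114). Falls came to 2 without sgNORAD replicate 2 or sgControl replicate 2.

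Of 32 splicing regulators 8 fell and 4 rose, with a median log2 change of -0.05. MBNL3, a regulator of muscle-type splicing, stood at 0.537 and 0.395 RPKM with sgNORAD, against 1.28 and 1.34 RPKM with sgControl (0.399, adjusted p = 2.28e-05). Its relative MBNL1 stood at 29.9 and 29.1 RPKM with sgNORAD, against 26.0 and 23.9 RPKM with sgControl (1.18-fold). SRSF4 fell to 0.829. Rises came to 1 without sgControl replicate 2 and to 2 without sgNORAD replicate 1, without sgControl replicate 1 or with RLE size factors, and falls to 4 without sgControl replicate 2.

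Chromatin regulators gave 8 rises and 6 falls among 24 genes, a balance that turned to 6 rises and 7 falls with RLE size factors or upper quartile factors. HMGA2, an architectural protein of embryonic cells, stood at 23.6 and 24.1 RPKM with sgNORAD, against 15.1 and 14.6 RPKM with sgControl (1.6-fold, adjusted p = 6.48e-07). KDM5B, a histone demethylase, stood at 2.17 and 1.99 RPKM with sgNORAD, against 1.14 and 1.10 RPKM with sgControl (1.79-fold). HMGB2, a DNA-bending protein of dividing cells, stood at 135 and 128 RPKM with sgNORAD, against 162 and 166 RPKM with sgControl (0.801). In each the groups did not overlap. Rises came to 4 without sgControl replicate 2. Among 6 tested oncofetal RNA-binding genes IGF2BP3 was the only large change, and its relative IGF2BP2 did not pass (44.9 and 44.9 RPKM with sgNORAD, against 45.5 and 46.4 RPKM with sgControl). The other calls, MSI2 (1.1-fold) and ELAVL1 (0.907), were lost under 13 and 3 other settings, and falls came to 2 without sgNORAD replicate 1.

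Matrix and adhesion genes changed in both directions. Of 31 tested genes of the matrix and its proteases 12 fell and 7 rose, with a median log2 change of 0.01. THBS1, thrombospondin, stood at 3.73 and 2.99 RPKM with sgNORAD, against 5.80 and 5.90 RPKM with sgControl (0.578, adjusted p = 4.77e-05). CCN2, a matrix signalling protein, stood at 1.94 and 2.13 RPKM with sgNORAD, against 3.53 and 3.59 RPKM with sgControl (0.584). SERPINE2, an inhibitor of thrombin and urokinase, stood at 11.5 and 11.1 RPKM with sgNORAD, against 18.1 and 18.3 RPKM with sgControl (0.623, adjusted p = 1.08e-06). The sgNORAD libraries were lower in these 3. The laminin chains LAMB1 and LAMA4 went the other way, with LAMB1 at 8.20 and 7.83 RPKM with sgNORAD, against 4.604 and 4.39 RPKM with sgControl (1.77-fold). LAMA4 stood at 0.824 and 0.763 RPKM with sgNORAD, against 0.0842 and 0.0879 RPKM with sgControl (4.8-fold). It passed the minimum level only through the parental sgNORAD and circPRE2 libraries, where it was high, and its fold depends on the constant added before the logarithm. PLAU, urokinase, rose 1.26-fold.

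Integrins, which tie cells to that matrix, fell in 7 of 10 genes and rose in 0, with a median log2 change of -0.17 (1 rise without sgNORAD replicate 2). ITGA6, of the laminin receptors, stood at 39.8 and 35.8 RPKM with sgNORAD, against 50.1 and 49.7 RPKM with sgControl (0.756, limma with Benjamini-Hochberg adjusted p = 6.82e-05). ITGB8 stood at 1.17 and 1.04 RPKM with sgNORAD, against 1.97 and 1.84 RPKM with sgControl (0.6). The shared beta chain ITGB1 fell to 0.882, while ITGA2 did not pass (fold 1.09).

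Of 25 junction genes 8 rose and 2 fell, with a median log2 change of 0.02. Falls were 6 with RLE size factors, 4 with upper quartile factors, 5 without sgNORAD replicate 1 and 1 without sgNORAD replicate 2 or sgControl replicate 2, so the imbalance depended on the scaling. CLDN3, a tight junction protein, stood at 9.65 and 9.65 RPKM with sgNORAD, against 5.07 and 6.51 RPKM with sgControl (1.67-fold, adjusted p = 0.000144), and the desmosome genes PKP3 and JUP rose 1.18-fold and 1.17-fold. CDH1, the epithelial cadherin, did not pass (11.5 and 10.5 RPKM with sgNORAD, against 12.0 and 11.9 RPKM with sgControl). Keratins and other filament genes gave 5 falls and 0 rises among 13 (median log2 change -0.20, and 1 rise without sgControl replicate 2). KRT8 stood at 262 and 252 RPKM with sgNORAD, against 288 and 301 RPKM with sgControl (0.873). Its partner KRT18 stood at 163 and 157 RPKM with sgNORAD, against 178 and 189 RPKM with sgControl (0.87), while KRT19 did not pass (fold 0.984). VIM, the mesenchymal filament, was low in all libraries, at 0.497 and 0.431 RPKM with sgNORAD, against 0.781 and 0.736 RPKM with sgControl (0.656).

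Of 7 tested mesenchymal regulators 2 fell and 1 rose, with a median log2 change of -0.08. TWIST1 stood at 1.34 and 1.12 RPKM with sgNORAD, against 3.38 and 3.56 RPKM with sgControl (0.371, adjusted p = 9.77e-07). The receptor gene TGFBR1 stood at 8.60 and 8.06 RPKM with sgNORAD, against 11.03 and 10.96 RPKM with sgControl (0.76). SKIL, a repressor of SMAD signalling, stood at 2.77 and 2.83 RPKM with sgNORAD, against 1.603 and 1.73 RPKM with sgControl (1.64-fold). The groups were apart in these 3 genes, and ZEB1 and SNAI1 did not pass (folds 0.944 and 1.05).

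Wnt targets and intestinal stem cell genes fell in 11 of 19 and rose in 5, with a median log2 change of -0.20. The Wnt target SP5 stood at 1.04 and 0.998 RPKM with sgNORAD, against 1.81 and 1.75 RPKM with sgControl (0.595). The receptor-clearing ligase RNF43 stood at 4.15 and 4.08 RPKM with sgNORAD, against 5.92 and 5.95 RPKM with sgControl (0.699). The intestinal factor SOX9 stood at 52.3 and 48.8 RPKM with sgNORAD, against 66.1 and 67.3 RPKM with sgControl (0.758, adjusted p = 2.69e-05). The BMP targets ID1 and ID3 fell to 0.771 and 0.777, with ID1 at 208 and 214 RPKM with sgNORAD, against 267 and 280.1 RPKM with sgControl, whereas their relative ID2 rose as described above. In ID1 as in the 3 genes before it the groups did not overlap. NKD2, an inhibitor of Wnt signalling, rose 1.66-fold, and the adhesion receptor gene CD44 1.15-fold.

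In the Notch pathway 4 of 13 genes rose and 4 fell, with a median log2 change of 0.09. The ligand DLL1 stood at 1.97 and 2.01 RPKM with sgNORAD, against 1.45 and 1.28 RPKM with sgControl (1.43-fold). The ligand JAG1 stood at 8.81 and 8.31 RPKM with sgNORAD, against 11.5 and 11.1 RPKM with sgControl (0.758, adjusted p = 0.000101). NOTCH3 rose 1.28-fold, the target NRARP rose 1.31-fold and HES4, another target, fell to 0.806. DNER, an atypical ligand, fell to 0.367. It stood at 0.869 and 0.679 RPKM with sgNORAD, against 2.13 and 2.41 RPKM with sgControl, with 1.76 and 1.78 RPKM in circPRE2 and 4.16 and 4.09 RPKM in circPRE8.

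The circadian clock was lower in 10 of 14 genes and higher in 2, with a median log2 change of -0.30. The clock works through activators that switch on their own repressors. BHLHE41, a repressor, stood at 0.631 and 0.505 RPKM with sgNORAD, against 1.71 and 1.51 RPKM with sgControl (0.39). The repressor PER3 stood at 0.861 and 0.794 RPKM with sgNORAD, against 1.51 and 1.28 RPKM with sgControl (0.623). The output factor DBP stood at 4.17 and 3.69 RPKM with sgNORAD, against 5.35 and 5.90 RPKM with sgControl (0.705, limma with Benjamini-Hochberg adjusted p = 0.000656). The sgNORAD libraries were lower in all 3. CRY1, CRY2, PER2, NR1D1, NR1D2, TEF and BHLHE40 fell to between 0.753 and 0.845 of the sgControl level. NFIL3, which competes with DBP, stood at 12.7 and 13.9 RPKM with sgNORAD, against 9.13 and 9.58 RPKM with sgControl (1.42-fold, adjusted p = 4.74e-05). The activator NPAS2 rose 1.26-fold, a call lost without sgControl replicate 2, and the activators ARNTL and CLOCK did not pass (folds 1.15 and 0.896). The element CACGTG was in 2 of 6 matched promoters of the members that fell and in 2 of 7 of the whole list. The share was 10.6% for tested genes, 9.3% for those lower and 11.7% for those higher with sgNORAD. The matched clock promoters are too few to compare with these shares.

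Of 25 guidance cues and receptors 8 rose and 2 fell, with a median log2 change of 0.00. Rises came to 4 without sgNORAD replicate 1 or sgControl replicate 1 and to 5 without sgControl replicate 2 or with RLE size factors. PLXND1, a semaphorin receptor, stood at 10.2 and 10.3 RPKM with sgNORAD, against 7.46 and 7.06 RPKM with sgControl (1.4-fold, adjusted p = 2.92e-05). SEMA3C, a secreted semaphorin, stood at 6.03 and 5.52 RPKM with sgNORAD, against 4.47 and 4.26 RPKM with sgControl (1.31-fold). Among the falls, SEMA3B stood at 5.84 and 7.20 RPKM with sgNORAD, against 9.82 and 8.65 RPKM with sgControl (0.707). The groups did not overlap in any of these. The other fall, SEMA3F (0.893), lost its call without each of the 4 parental libraries in turn.

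**Figure D4:**
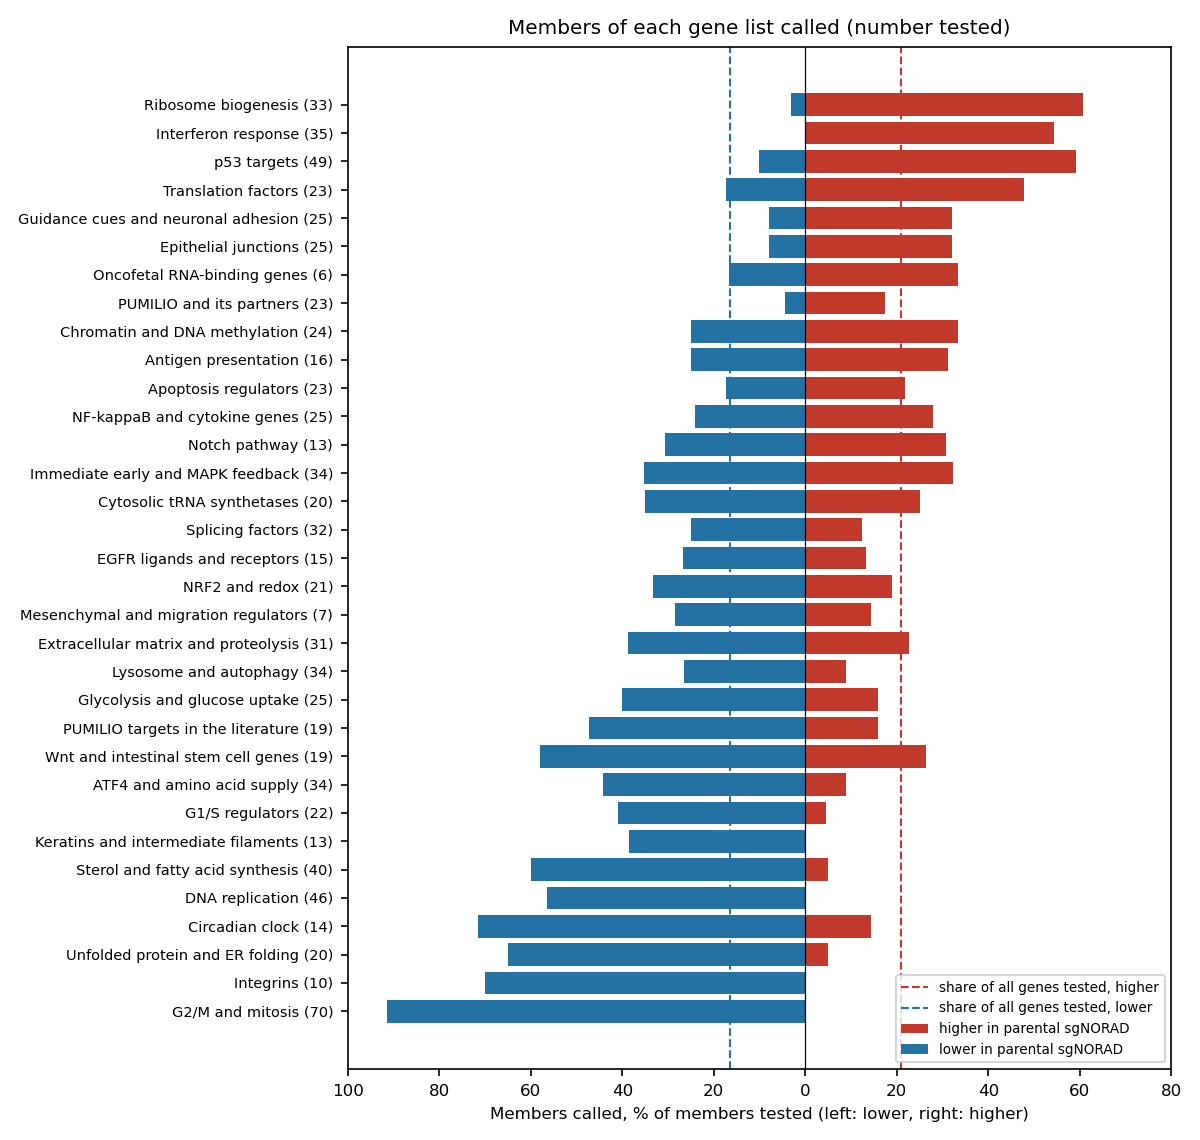
Share of the tested members of each of the 33 lists that were called lower (left, blue) or higher (right, red) in parental sgNORAD, in percent, with the number tested in brackets and dashed lines at the shares of all genes tested, 16.4% and 20.9%. The mitosis list reaches 91.4% lower and 0 higher, and ribosome biogenesis 60.6% higher.

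Read by chromosome, the genes of chromosome 21 stood apart. Of its 101 tested genes 37 rose (36.6%) and 7 fell (6.93%), and the median log2 change was 0.13. The other autosomes and X had 15.7% to 26.1% of genes higher and medians between 0.00 and 0.06. The median of the chromosome 21 genes relative to the sgControl mean was 0.13 in both sgNORAD libraries, 0.10 in both circPRE2 libraries, and 0.01 and -0.06 in the circPRE8 libraries. Both sgNORAD libraries thus had the same value to this precision, and the circPRE8 libraries lay on both sides of 0. In the circPRE2 libraries chromosome 21 did not stand apart. Their medians were 0.111 and 0.105 on chromosome 19, against 0.099 and 0.098 on chromosome 21.

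The rises on chromosome 21 differed in size, and NRIP1 was described above. TTC3, a ubiquitin ligase, stood at 9.74 and 9.54 RPKM with sgNORAD, against 3.98 and 3.72 RPKM with sgControl (2.47-fold, adjusted p = 8.08e-08). TIAM1, an activator of the GTPase RAC1, stood at 16.0 and 15.5 RPKM with sgNORAD, against 9.87 and 9.06 RPKM with sgControl (1.66-fold, adjusted p = 4.17e-06). SOD1, the cytosolic superoxide dismutase, stood at 140.3 and 139 RPKM with sgNORAD, against 125 and 127 RPKM with sgControl (1.11-fold). GART, an enzyme of purine synthesis, stood at 37.7 and 36.3 RPKM with sgNORAD, against 32.0 and 32.4 RPKM with sgControl (1.15-fold). The sgNORAD libraries were higher in all 4. APP, the amyloid precursor, stood at 110.0 and 103 RPKM with sgNORAD, against 104 and 105 RPKM with sgControl, and did not pass, and IFNGR2, a receptor chain of interferon gamma, fell to 0.816. These genes were chosen after their values were seen. Chromosomes 19 and 16, with 26.1% and 22.6% of genes higher, had the next largest medians, each 0.06.

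**Figure D5:**
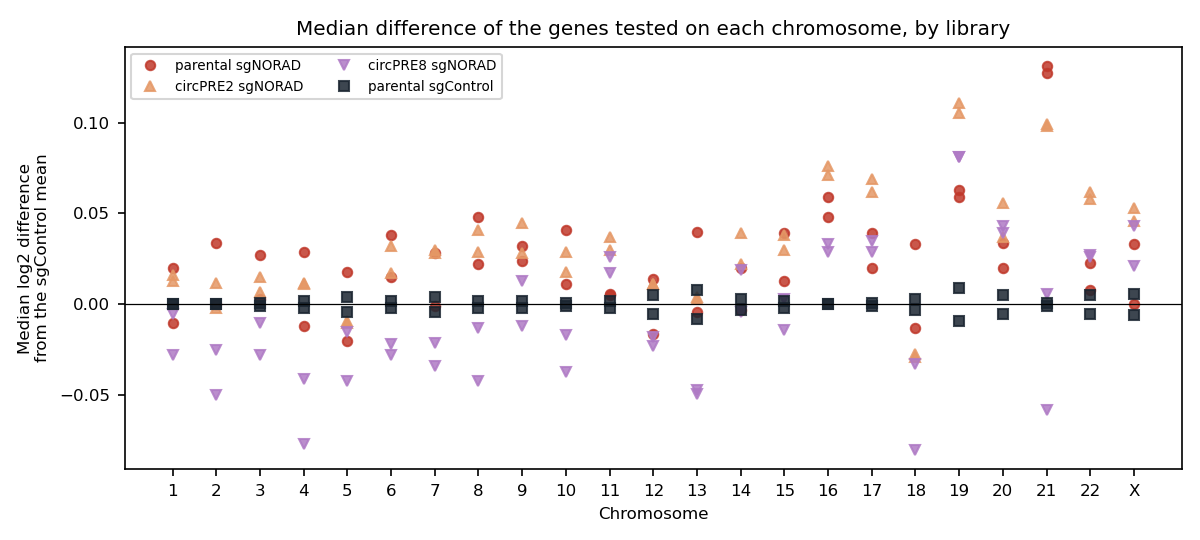
Median log2 difference from the mean of the sgControl libraries over the tested genes of each chromosome, 1 point per library. On chromosome 21 both parental sgNORAD libraries lie at 0.13 and the circPRE8 libraries at 0.01 and -0.06, while the medians of both parental sgNORAD libraries on the other chromosomes lie between -0.02 and 0.06.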

How the data were processed

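In all, 8 poly(A) RNA-seq libraries of HCT116 CRISPRi cells (4 groups of 2) were measured. The authors deposited 1 table of RPKM values per gene and library. Per the submitters' processing notes, STAR, featureCounts 1.6.0, edgeR 3.24.0 and the build hg38 were used. The sources used here give neither annotation release nor strand setting, so overlapping and antisense genes cannot be told apart. Gene coordinates are from GENCODE release 29 (19379 of 19411 identifiers matched), and promoter sequences are from RefSeq on GRCh38.p14. For the 8691 identifiers of the same version, low RPKM values times gene length fell on whole multiples within 0.1 reads, which gave library sizes of 28.39 to 50.28 M reads.

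The test was limma 3.58.1 (R 4.3.3) on log2(RPKM + 0.1), with an intensity trend, 1 mean per group over all 8 libraries, 4 residual degrees of freedom and a median of 11.6 after moderation, Benjamini-Hochberg adjustment and a threshold of 0.05. The fold changes understate those of low genes. The procedure was tested on simulated data. Genes needed 0.5 RPKM in 2 libraries. Alternatives were other constants, filters, scalings and variance models, a replicate block and each library left out.

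The named genes were the 20 largest rises and falls among those called with a mean of at least 1 RPKM in the higher group and groups that do not overlap, the 8 largest each way at 50 RPKM or more, up to 3 per direction and the extremes in each of 33 lists, and IL32, CDKN1A, MDM2 and PUM2. Some genes that the rule names are not reported here. Other list members are named to describe their list and were chosen after their values were seen. The comparison, members and lists were chosen with earlier results of these data known. The motif searches cover the promoter window only, and only genes with a single promoter entry.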

Additional observations from a re-analysis of the deposited data

How the results depend on the processing

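With 1 in place of 0.1 as the constant added before the logarithm, 17 genes were more than 2-fold higher and 4 more than 2-fold lower, instead of 48 and 36. The constant's own construction draws the folds of low genes towards 1. The counts of genes called stayed within 1.5 times under each of the 17 settings. With 1 library left out they ran from 1628 to 2298 genes higher and from 1277 to 1902 genes lower, and more than 2-fold from 48 to 56 genes higher and from 33 to 42 genes lower. Both lowest counts of calls came without sgControl replicate 2. The replicate block gave 2506 genes higher and 1915 lower. Whether libraries with the same number were handled together is not given in the labels, so pairing is unknown. The deviations of the sgControl and sgNORAD libraries from their group means correlated at -0.086. Over all pairs of groups the correlations ran from -0.173 (sgControl with circPRE8) to 0.211 (sgControl with circPRE2). Such correlations cannot decide whether the libraries were paired. Of 213 named genes none reversed under any setting, and 20 lost their call without sgControl replicate 2, 11 without sgNORAD replicate 1, 9 without sgControl replicate 1 and 6 without sgNORAD replicate 2. The median standard error was 0.14 below 1 RPKM and 0.04 at 100 RPKM or more. The planned count test on recovered reads was not run, because the deposited unit is RPKM.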

Other observations

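Among the other genes more than 2-fold apart, chosen here after their values were seen, several encode transcription factors or growth factors. BMP5, a growth factor of the BMP family, stood at 0.541 and 0.502 RPKM with sgNORAD, against 0.00592 and 0.00561 RPKM with sgControl, near 0 with sgControl. BMP5 passed the minimum level only through libraries with the NORAD guide, where it was high. NR2F1, an orphan nuclear receptor, stood at 20.8 and 21.5 RPKM with sgNORAD, against 9.65 and 9.55 RPKM with sgControl (2.19-fold, limma with Benjamini-Hochberg adjusted p = 1.94e-08). Both sgNORAD libraries were the higher ones in both genes. EHF, an epithelial ETS factor and relative of ELF3, stood at 10.2 and 9.01 RPKM with sgNORAD, against 20.6 and 20.97 RPKM with sgControl, and fell to 0.465 (adjusted p = 4.44e-07), so that ELF3 and EHF moved in opposite directions.

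Enzymes of the same group included HAS3, which makes hyaluronan, at 18.7 and 18.8 RPKM with sgNORAD, against 9.02 and 9.30 RPKM with sgControl (2.04-fold). ACSL5, which activates fatty acids, stood at 11.4 and 11.6 RPKM with sgNORAD, against 5.05 and 4.98 RPKM with sgControl (2.27-fold, adjusted p = 5.54e-07). CA2, a carbonic anhydrase, stood at 13.2 and 12.3 RPKM with sgNORAD, against 25.8 and 27.4 RPKM with sgControl, and fell to 0.48. The groups did not overlap in any of these genes. Among secreted proteins, the protease inhibitor gene SLPI stood at 0.0591 and 0.184 RPKM with sgNORAD, against 0.473 and 0.636 RPKM with sgControl. IGFBP3, a carrier of insulin-like growth factors, stood at 0.308 and 0.225 RPKM with sgNORAD, against 0.720 and 0.663 RPKM with sgControl. Both were lower with sgNORAD, IGFBP3 at 0.461 of the sgControl level, and both were under 1 RPKM in all 4 libraries. Of the 36 genes more than 2-fold lower, 7 were under 0.5 RPKM in both sgNORAD libraries.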
